A study of Xenopus laevis with 2 samples.

Results

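The genes described here encode the RNA polymerase II transcription machinery of Xenopus laevis: the polymerase itself, the general transcription factors that place it on promoters, the Mediator coactivator, and the Integrator, FACT, SAGA, Elongator and elongation-factor subunits whose names fall in the same families. They were chosen by a rule on the gene symbol, among probe sets that carry a single symbol on the Affymetrix Xenopus laevis array. That choice was made with earlier results of these data known. The rule found 104 probe sets for 82 genes, out of 9304 probe sets for 7531 genes with 1 symbol. Of the 82 genes, 40 carry the suffix .L and 41 the suffix .S, which mark the copies (homeologs) from the long and the short subgenome of this allotetraploid frog, and 1, med19, carries neither.

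The first group was labelled Derriere depleted: embryos whose dorsal blastomeres received 2 ng of morpholino, an antisense oligonucleotide that keeps its target RNA from being translated or spliced, and GFP as a tracer at the 4-cell stage. Derriere, encoded by gdf3, is a secreted TGF-beta ligand with roles in forming the mesoderm and patterning the posterior body. The other group was labelled wildtype, and the sources used here do not say whether its embryos were injected. Dorsal posterior pieces, mostly mesoderm by the labels, were dissected from both at stage 18, a neurula, with no genotype given and the number of embryos per array not stated. With 1 array per group, the differences below have no replicate check and no p-value, and the number of arrays limits the precision.

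RNA polymerase II transcribes the protein-coding genes. TFIID, built from the TATA-binding protein and its associated factors, marks the promoter, TFIIA, TFIIB, TFIIE and TFIIF complete the initiation complex, and TFIIH opens the DNA and phosphorylates the polymerase tail. Mediator carries signals from DNA-bound activators to the polymerase, and P-TEFb, DSIF and TFIIS act on the polymerase once it has left the promoter. These are housekeeping complexes in every embryonic tissue. In bulk tissue such as these pieces, fewer cells of a type and less RNA per cell cannot be told apart.

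Signals are MAS5 probe set intensities. A log2 ratio below sets the array labelled Derriere depleted over that labelled wildtype and is centred on the median of all probe sets kept. Probe sets were kept where their mean signal reached 75, the median over all probe sets, and a gene's value is the mean over its kept probe sets. Over 15491 probe sets the signals had medians of 74.1 in the array labelled Derriere depleted and 75.4 in the array labelled wildtype. The derriere transcript itself, gdf3.S, read 2318.6 in the array labelled Derriere depleted and 552.0 in the array labelled wildtype, 4.17-fold higher. A morpholino need not lower its target's RNA, but all directions below hold only if the labels do. The tissue labels were checked against markers fixed for this purpose. The posterior mesoderm genes tbxt.S, msgn1.L and tbx6.L read 1165.1, 1341.4 and 2464.9 in the array labelled Derriere depleted, against 1039.0, 1149.5 and 2294.1 in the array labelled wildtype. A further marker of this tissue, cdx4.L, read 360.8 and 363.7 in the same order. The somite and muscle markers myf5.L, myod1.L and myod1.S had log2 ratios of -0.09, 0.06 and 0.07. Markers of other tissues were present as well. The epidermal lectin itln1.L, for example, read 7025.5 in the array labelled Derriere depleted and 8244.9 in the array labelled wildtype, and the neural factor sox2.L read 380.0 and 573.6 in the same order. The other markers with log2 ratios of 0.40 or more in size were the endoderm factor sox17a.L at 1.39, the epithelial cadherin cdh1.S at 0.95, the keratin krt12.4.L at 0.48, the neural adhesion gene ncam1.S at -0.44 and the notochord factor foxa4.S at -0.72. The signals of sox17a.L were 147.8 in the array labelled Derriere depleted and 56.2 in the array labelled wildtype. Those of cdh1.S were 101.2 and 52.0 in the same order. Both genes were under 75 in the array labelled wildtype and passed the filter through the other array. The other measured endoderm marker, a2m.S, read 1243.1 in the array labelled Derriere depleted and 1197.7 in the array labelled wildtype, a log2 ratio of 0.04. The other keratin copy, krt12.4.S, read -0.15. The other foxa4 copy, foxa4.L, read -0.20, and the notochord marker shh.L read -0.08. The part of tissue composition in the values below was not tested.

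Most of the transcription machinery was well above the signal filter. Of its 82 genes, 71 (86.6%) had a kept probe set, against 60.3% of all genes with 1 symbol. None of the 71 reached 2-fold in either direction, beside 0.374% of all measured genes that were 2-fold or more higher and 0.242% that were 2-fold or more lower. At 1.5-fold, a log2 ratio of 0.585 in size, 5 genes were lower and 1 was higher. The 5 lower genes, 7.04% of the 71, stand beside 3.08% of all measured genes, and the 1 higher gene, 1.41%, beside 2%. The lower genes were 3 Mediator subunits (med10.S, med18.S and med31.L), the polymerase subunit polr2j.S and the cyclin of the TFIIH kinase, ccnh.L. The higher gene was the Integrator subunit ints4.L.

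As a whole the machinery leaned to lower signals in the array labelled Derriere depleted. Log2 ratios were below 0 for 45 of 71 genes (63.4%), against 50.8% of all measured genes. The median was -0.10 for the machinery and -0.01 for all genes. In the polymerase and Mediator together, 21 of 27 genes were below 0. The other 44 genes had a median of -0.03, with 24 below 0 and 20 above. They were mixed by complex. TFIIH, SAGA and the elongation factors had medians of -0.17, -0.16 and -0.12, beside -0.14 for Mediator alone. TFIID with the TBP family, the group of TFIIA, TFIIB, TFIIE and TFIIF, and Integrator had medians of 0.03, 0.12 and 0.12. Values below 0 were thus not confined to the polymerase and Mediator. The lean of the machinery was uneven over signal, without a steady trend. All measured genes were split by mean signal into 4 equal bins. In the brightest bin, 13 of 15 machinery genes were below 0 with a median of -0.29. Of the other genes there, 576 of 1121 were below 0 with a median of -0.01. The brightest machinery genes include polr2e.S, polr2c.S and med20.S, all below 0, and taf13.S, which lay above 0. The count of this bin is thus not separate from that of the polymerase and Mediator. In the dimmest bin, 5 of 11 machinery genes were below 0, with a median of 0.02. The bins between had 12 of 18 and 15 of 27 machinery genes below 0, the dimmer bin first, with medians of -0.12 and -0.03.

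**Figure D1:**
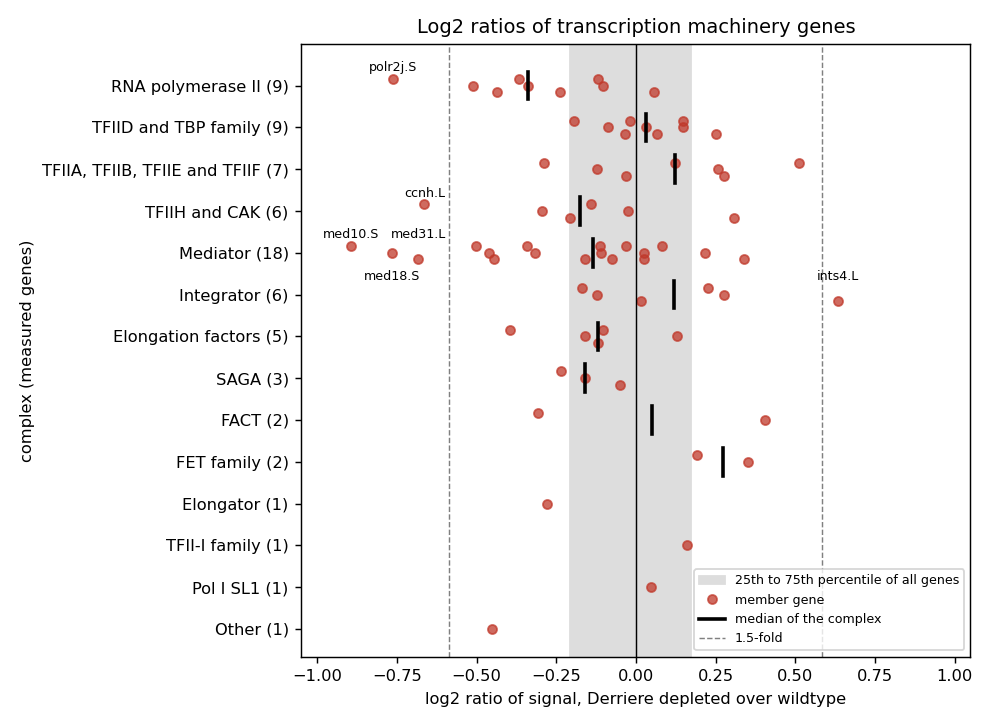
Log2 ratio of signal, Derriere depleted over wildtype as labelled, for each of the 71 measured genes (points) grouped by complex, with the number of measured genes in brackets. Black bars are medians of complexes with more than 1 gene. The grey band spans the 25th to the 75th percentile of all measured genes, and dashed lines mark 1.5-fold. Of the polymerase genes, 8 of 9 lie left of 0, and genes of TFIID and the TBP family lie between -0.19 and 0.25.

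The subunits of RNA polymerase II had the lowest median of the complexes with 3 or more measured genes. All 9 subunit genes in the rule were measured, 8 of them below 0, with a median log2 ratio of -0.34. The lowest was polr2j.S, a small subunit that pairs with polr2c at the base of the enzyme where assembly starts, with a signal of 279.1 in the array labelled Derriere depleted and 470.5 in the array labelled wildtype. That is 1.70-fold lower, and 49 of all measured genes had a value as low or lower. Its partner polr2c.S read 1627.2 in the array labelled Derriere depleted and 2304.0 in the array labelled wildtype, 1.42-fold lower. Both members of this assembly pair had log2 ratios below 0, with polr2c.S just short of 1.5-fold. The gene polr2d.L, for a subunit of the stalk that guides the exiting RNA, read 945.0 in the array labelled Derriere depleted and 1186.4 in the array labelled wildtype, a log2 ratio of -0.34.

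A further 4 subunits measured here are shared with RNA polymerases I and III, and all lay below 0, with a median log2 ratio of -0.30.
The signal of polr2f.S was 899.0 in the array labelled Derriere depleted and 1209.1 in the array labelled wildtype, a log2 ratio of -0.44. For polr2k.L the signals were 269.1 in the array labelled Derriere depleted and 344.6 in the array labelled wildtype, a log2 ratio of -0.37. The value of polr2h.L was -0.24, from signals of 1222.0 in the array labelled Derriere depleted and 1432.0 in the array labelled wildtype. The subunit gene polr2e.S had 2 probe sets, at -0.21 and -0.03.
The large subunit polr2b.S, which forms one side of the active-site cleft, was nearer to 0 than most of the small subunits. Its 2 probe sets read -0.26 and 0.05, the second of them the brighter, with 1202.1 in the array labelled Derriere depleted and 1155.7 in the array labelled wildtype. The mean for polr2b.S, -0.10, thus lies below 0 only through the dimmer probe set. Other subunit genes, polr2a, polr2g and polr2l among them, were not analysed here.

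The gene polr2i.S, whose product contributes to fidelity and to the cleavage of misincorporated transcripts, was the exception by its mean, and its probe sets disagreed. The platform annotation gives this symbol to 11 probe sets, of which 6 passed the signal filter. The brightest read 1210.3 in the array labelled Derriere depleted and 1654.9 in the array labelled wildtype, a log2 ratio of -0.46, and the next 663.3 and 808.6 in the same order, a log2 ratio of -0.29. Another read the opposite way, 689.3 in the array labelled Derriere depleted and 331.9 in the array labelled wildtype. That probe set was 2.06-fold higher and the only one of the 85 kept probe sets of the machinery past 2-fold, beside 0.349% of all kept probe sets past 2-fold in that direction. The remaining kept probe sets read -0.25, 0.00 and 0.31. The mean over the 6 was 0.06, and it was -0.14 without the probe set past 2-fold. The range of 1.51 between them was the widest of the 4 genes on the array with 6 or more kept probe sets, beside 0.35 for ctps2.L, 0.40 for cdc42.L and 0.92 for pds5a.S. Whether all 11 probe sets read the polr2i.S transcript was not tested. The 5 probe sets under the filter had signals between 7.5 and 31.4 over both arrays.

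**Figure D2:**
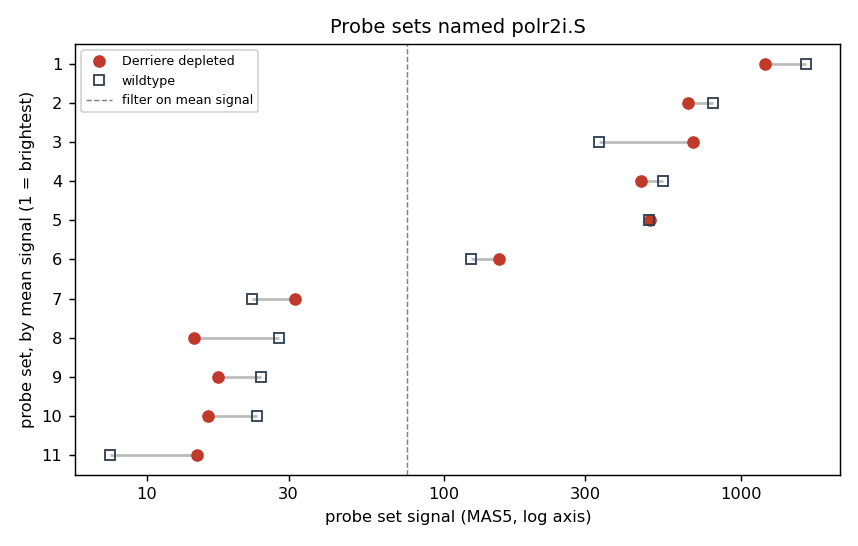
Signal (log axis) of the 11 probe sets named polr2i.S, brightest at the top, in the arrays labelled Derriere depleted (filled circles) and wildtype (open squares), with the filter on mean signal dashed. The 2 brightest lie lower in the array labelled Derriere depleted, while the probe set at 689.3 and 331.9 lies higher there.

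Signals of spiked-in controls moved in the same direction as the polymerase. The 18 probe sets for hybridization controls, which are added to every array, had a median log2 ratio of -0.22, with 16 of them below 0. The 12 poly-A control probe sets at or above the signal floor had a median of -0.90, with 11 below 0. The ratio of 3′ to 5′ signal, a measure of RNA and labelling quality, was 3.54 in the array labelled Derriere depleted and 4.74 in the array labelled wildtype for beta-actin, and 24.3 and 32.3 in the same order for Gapd. For the other control transcripts it was 126.3 in the array labelled Derriere depleted and 206.5 in the array labelled wildtype for a3Act, and, the other way, 71.6 and 65.3 in the same order for a1Act. The part of these differences in the polymerase and Mediator values was not tested.

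The genes listed for the other RNA polymerases are not a like comparison for the polymerase II subunits. Their list leaves out the shared subunits, which all lay below 0. It also includes factors that are not subunits, such as rrn3 and ubtf. Of a list of 31 symbols for subunits and factors specific to RNA polymerases I and III, 12 were measured, as 13 gene copies, 7 above 0 and 6 below, with a median of 0.01. One of them, crcp.S, for a polymerase III subunit, was past 1.5-fold, with 231.4 in the array labelled Derriere depleted and 365.0 in the array labelled wildtype. The polymerase I initiation factor rrn3.L, just short of that size, had a log2 ratio of 0.58, with 192.0 in the array labelled Derriere depleted and 127.7 in the array labelled wildtype. The polymerase I subunit polr1e.L read -0.47, and the homeologs of the nucleolar factor ubtf lay on opposite sides, ubtf.L at 0.44 and ubtf.S at -0.36. The signals of ubtf.S were 70.9 in the array labelled Derriere depleted and 90.3 in the array labelled wildtype. It was thus under 75 in the first and passed the filter through the second, where it was higher.

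Mediator had 20 genes in the rule, of which 18 were measured, 13 below 0 and 5 above. The median log2 ratio was -0.14 and the spread was wide, with an SD over genes of 0.34. The lowest value of the whole machinery was that of med10.S, a subunit of the middle module that links the head to the rest of the complex. It read 429.3 in the array labelled Derriere depleted and 792.8 in the array labelled wildtype, 1.86-fold lower, and 20 of all measured genes had a value as low or lower. The gene med18.S, for a head subunit that touches the polymerase, read 152.8 in the array labelled Derriere depleted and 257.9 in the array labelled wildtype, 1.70-fold lower. The third was med31.L, a small conserved middle subunit, with 645.4 in the array labelled Derriere depleted and 1029.6 in the array labelled wildtype, 1.61-fold lower.

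**Figure D3:**
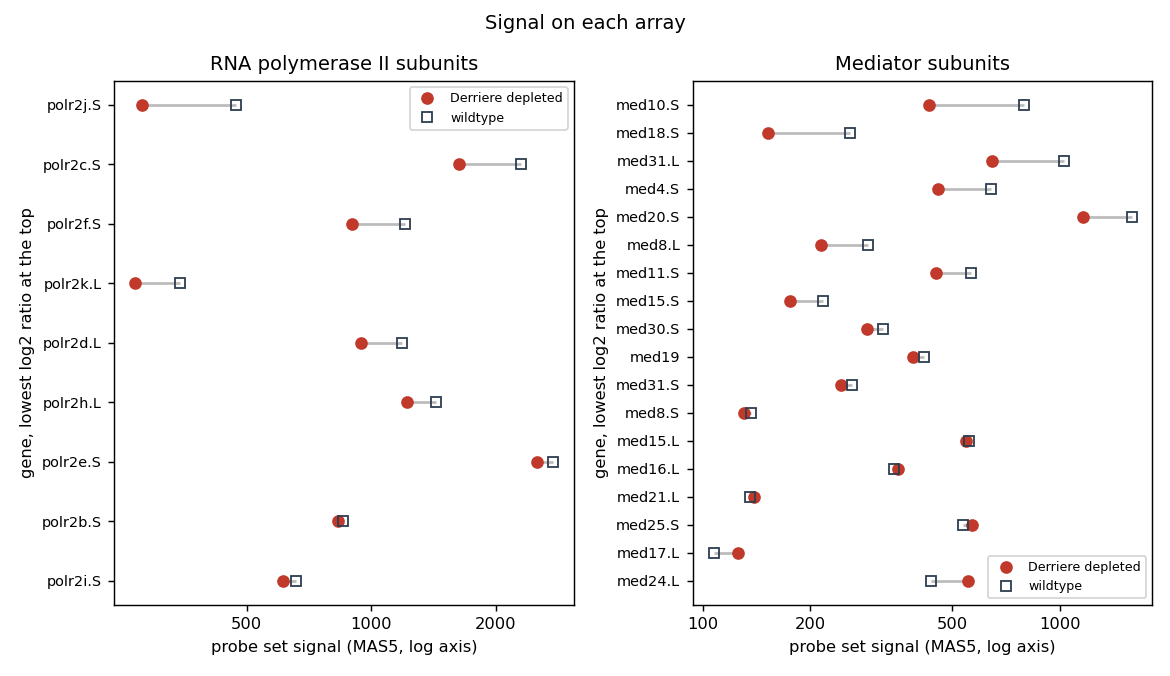
Signal (log axis) of each measured RNA polymerase II subunit (left) and Mediator subunit (right) in the arrays labelled Derriere depleted (filled circles) and wildtype (open squares), averaged over kept probe sets and ordered by log2 ratio, lowest at the top. The signal of med10.S was 429.3 and 792.8 in that order, the circles lie left of the squares for 13 of the 18 Mediator genes, and for polr2i.S the averaged signals (612.3 and 659.8 in that order) and the mean log2 ratio (0.06) lie on opposite sides because its probe sets disagree.

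Set out by module, the medians of the head and middle, which contact the polymerase, lay below that of the tail, which receives activators. This grouping was made after the values were seen and is a description. The 6 head genes had a median log2 ratio of -0.39, with 5 below 0, and the 5 middle genes a median of -0.50, with 4 below 0. The 5 tail genes had a median of 0.03, with 2 below 0. In the head, med20.S read 1163.7 in the array labelled Derriere depleted and 1591.0 in the array labelled wildtype, a log2 ratio of -0.46, and med11.S read -0.34. The head scaffold med17.L went the other way at 0.22, with signals of 125.6 in the array labelled Derriere depleted and 107.3 in the array labelled wildtype. In the middle, med4.S read 456.1 in the array labelled Derriere depleted and 641.3 in the array labelled wildtype, a log2 ratio of -0.50, while med21.L, the partner of med7 in the hinge of the complex, read 0.03.
The highest Mediator value was that of the tail gene med24.L, with 554.0 in the array labelled Derriere depleted and 435.1 in the array labelled wildtype, a log2 ratio of 0.34. The tail genes med16.L and med25.S read 0.03 and 0.08. The modules overlapped: the tail gene med15.S read -0.32, lower than the head copy med8.S at -0.07 and the middle copy med31.S at -0.11, and med15.L read -0.03. The subunits med19 and med30.S were assigned to no module and read -0.11 and -0.16. The subunit med26.L and the tail subunit med29.L were under the signal filter, at 55.3 and 42.9 in the array labelled Derriere depleted, against 40.9 and 42.9 in the array labelled wildtype. Of a list of 2 further symbols of the Mediator kinase module, the cyclin ccnc and the kinase cdk19, 0 were measured.

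Both homeologs of 5 genes were in the rule and both were measured for 4 of them, med8, med15, med31 and taf15. The copies of each pair lay on the same side of 0, which held for 323 of 524 pairs (61.6%) over the whole array. Their sizes differed most for med31, where med31.L read -0.68 and med31.S read -0.11, from signals of 243.9 in the array labelled Derriere depleted and 261.7 in the array labelled wildtype for the .S copy. The difference of 0.57 was the only one of the 4 pairs at or above 0.4, a size reached by 19.8% of all pairs. For med8, the .L copy read 214.1 in the array labelled Derriere depleted and 289.8 in the array labelled wildtype, a log2 ratio of -0.45, and the .S copy read -0.07. For med15, the subunit that binds SMAD proteins downstream of TGF-beta ligands in Xenopus, med15.L read 548.0 in the array labelled Derriere depleted and 557.0 in the array labelled wildtype, a log2 ratio of -0.03, and med15.S read 175.7 and 217.4 in the same order, a log2 ratio of -0.32. Near-identical copies can share signal between their probe sets, so the values of a pair are not independent.

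**Figure D4:**
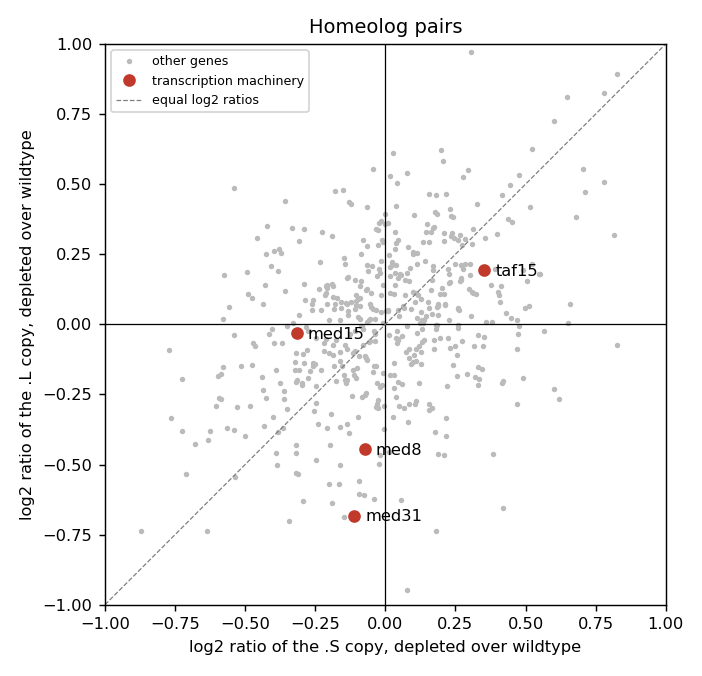
Log2 ratio, Derriere depleted over wildtype as labelled, of the .L copy against the .S copy for the 4 measured homeolog pairs of the machinery (large points, named) and 515 other pairs (small points), with 5 other pairs outside the axes. The dashed line marks equal ratios; the med31 pair lies at -0.68 for .L and -0.11 for .S.

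TFIID lay near 0. Of 13 genes of TFIID and the TBP family, 9 were measured, 5 above 0 and 4 below, with a median log2 ratio of 0.03 and a range from -0.19 to 0.25. The highest was taf7.L, a regulator of the TAF1 enzyme, with 387.2 in the array labelled Derriere depleted and 323.2 in the array labelled wildtype. The brightest was taf13.S, with 3058.2 in the array labelled Derriere depleted and 2745.2 in the array labelled wildtype, a log2 ratio of 0.15. Its histone-fold partner taf11.S had 2 probe sets that disagreed, at -0.35 and 0.42, so its mean of 0.03 describes neither. The factor taf3.S, which binds an active histone mark, read 0.15, taf8.S 0.07, taf12.L -0.03 and taf9b.S -0.09.

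The TATA-binding protein gene tbp.L passed the filter narrowly, with 78.8 in the array labelled Derriere depleted and 79.3 in the array labelled wildtype. Its homeolog tbp.S, at 45.1 in the array labelled Derriere depleted and 64.7 in the array labelled wildtype, was under it. The TBP-like factor tbpl1.L, needed for embryonic transcription in Xenopus, was the lowest of the group, with 406.4 in the array labelled Derriere depleted and 462.1 in the array labelled wildtype, a log2 ratio of -0.19. The egg-enriched TBP relative tbpl2.L read 5.4 in the array labelled Derriere depleted and 3.2 in the array labelled wildtype, which gives no ratio. The TFIID genes taf6.L and taf10.L were also under the filter, at 36.1 and 24.0 in the array labelled Derriere depleted, against 36.8 and 26.2 in the array labelled wildtype.

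The factors TFIIA, TFIIB, TFIIE and TFIIF were all measured, as 7 genes with a median log2 ratio of 0.12, 4 above 0 and 3 below. In each of the factors with a large and a small subunit, the gene of the large subunit had the higher log2 ratio. In TFIIA, gtf2a1.S read 593.0 in the array labelled Derriere depleted and 492.5 in the array labelled wildtype, a log2 ratio of 0.26, and gtf2a2.L read -0.12. In TFIIE, which recruits TFIIH, gtf2e1.L read 101.2 in the array labelled Derriere depleted and 70.6 in the array labelled wildtype. Its log2 ratio was 0.51 at low signal, and that of gtf2e2.L was -0.03. The signal of gtf2e1.L was under 75 in the array labelled wildtype, and the gene passed the filter through the other array, where it was higher. In TFIIF, which escorts the polymerase to the promoter, gtf2f1.L read 486.9 in the array labelled Derriere depleted and 399.1 in the array labelled wildtype, a log2 ratio of 0.28, and gtf2f2.S read 746.9 and 907.4 in the same order, a log2 ratio of -0.29. The values of the 3 pairs are a description made after they were seen. The bridging factor gtf2b.L read 0.12.

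TFIIH, which holds the promoter-opening translocase and the cyclin-dependent kinase of the polymerase tail, had 6 measured genes with a median of -0.17, 5 of them below 0. The kinase module was divided. Its cyclin, ccnh.L, read 641.4 in the array labelled Derriere depleted and 1009.9 in the array labelled wildtype, 1.58-fold lower, and the kinase cdk7.L read 289.1 and 352.1 in the same order, a log2 ratio of -0.29. The assembly factor mnat1.L read 429.4 in the array labelled Derriere depleted and 345.1 in the array labelled wildtype, a log2 ratio of 0.31, so the 3 subunits of this module did not lie on 1 side. In the core, the translocase gene ercc3.L had probe sets at -0.43 and 0.15, gtf2h4.S read -0.21 and gtf2h1.L -0.03. A second probe set of cdk7.L, at 12.0 in the array labelled Derriere depleted and 23.3 in the array labelled wildtype, was under the filter.

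Of 9 genes for elongation factors, 5 were measured, 4 of them below 0, with a median of -0.12. The lowest was cdk9.L, the kinase of P-TEFb that releases paused polymerase, with 285.6 in the array labelled Derriere depleted and 373.6 in the array labelled wildtype, a log2 ratio of -0.40. Its cyclin partner ccnt2.S lay on the other side, at 0.13, and the other cyclin, ccnt1.L, was under the filter at 12.8 in the array labelled Derriere depleted and 12.1 in the array labelled wildtype. The DSIF subunits supt4h1.L and supt5h.S read -0.16 and -0.10, and the TFIIS gene tcea1.L read -0.12. The elongation factor genes ell.S and ell2.S were under the filter, at 45.2 and 57.7 in the array labelled Derriere depleted, against 68.5 and 85.2 in the array labelled wildtype. The gene tcea2.S was also under the filter, at 1.6 in the array labelled Derriere depleted and 26.2 in the array labelled wildtype, which gives no ratio. A probe set that names tcea3.S together with another symbol was left out by the rule and read 25.1 and 24.2 in the same order. Of a list of 29 other symbols for pausing and elongation, 10 were measured, 5 above 0 and 5 below, with a median of -0.01 and 0 past 1.5-fold. Among them the PAF complex gene cdc73.S read 0.39, the cyclin ccnk.L 0.35 and the NELF subunit nelfb.L 0.29.

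The FACT subunits, which together move histones out of the way of the polymerase, lay on opposite sides. The gene ssrp1.S read 548.8 in the array labelled Derriere depleted and 411.7 in the array labelled wildtype, a log2 ratio of 0.41, and supt16h.S read 1743.9 and 2143.1 in the same order, a log2 ratio of -0.31. Neither reached 1.5-fold.

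Integrator, which cleaves small nuclear RNAs and the transcripts of paused polymerase, had 6 measured genes, 4 above 0, with a median log2 ratio of 0.12. The highest was ints4.L, the scaffold of its cleavage module, with 184.4 in the array labelled Derriere depleted and 118.0 in the array labelled wildtype, 1.55-fold higher. Its module partner ints9.S read 0.02. The genes ints2.S and ints3.L read 0.28 and 0.23, and ints12.S and ints7.S read -0.12 and -0.17. When low signals were handled by adding a constant instead of a floor, ints4.L came to 0.56, short of 1.5-fold. Only ints7.S passed a stricter signal filter, at the 75th percentile, so that the median there is that of 1 gene.

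The remaining families held few genes. The SAGA coactivator genes taf6l.S, taf5l.S and supt7l.L read -0.23, -0.16 and -0.05, the last of these over probe sets from -0.23 to 0.27. Both copies of taf15, an RNA-binding protein of the FET family that associates with TFIID, had log2 ratios above 0 and under 1.5-fold, with taf15.S at 701.2 in the array labelled Derriere depleted and 545.6 in the array labelled wildtype, a log2 ratio of 0.35, and taf15.L at 0.19. The gene tceanc2.S, named for its TFIIS-like domain, read 549.8 in the array labelled Derriere depleted and 746.5 in the array labelled wildtype, a log2 ratio of -0.45. Of Elongator, which modifies transfer RNAs, elp6.L read -0.28 and elp3.L was under the filter, at 2.5 in the array labelled Derriere depleted and 2.3 in the array labelled wildtype. The polymerase I factor taf1b.L and the TFII-I relative gtf2ird1.S read 0.05 and 0.16.

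Measured genes of a further 3 lists, which act on the polymerase or its transcripts and lie outside the rule, were all less than 1.5-fold apart. In the list for polymerase assembly and tail phosphatases, 8 of 16 symbols were measured, as 10 gene copies, 7 of them below 0, with a median of -0.04. The lowest was rpap3.L, for a cochaperone that helps assemble the polymerase, with 894.3 in the array labelled Derriere depleted and 1299.3 in the array labelled wildtype, 1.46-fold lower. Another assembly gene, gpn2.S, read -0.28, and the other 8 lay between -0.11 and 0.13. In the list for capping and cleavage of transcripts, 19 gene copies were measured, 10 above 0 and 9 below, with a median of 0.10. Its extremes were the cleavage factor cstf1.S at 0.54 and the capping enzyme rngtt.S at -0.50. Of the TBP regulators and SAGA genes outside the rule, 3 were measured, among them the TBP inhibitor subunit drap1.L, with 132.5 in the array labelled Derriere depleted and 87.9 in the array labelled wildtype, a log2 ratio of 0.583, just short of 1.5-fold.

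Different probe sets of 1 gene, read on the same RNA, give a measure of error within these arrays. Their pooled SD was 0.23 over 580 genes of the array and 0.40 over the 9 machinery genes with more than 1 kept probe set, of which polr2i.S and taf11.S had ranges of 0.6 or more. The pooled SD covers technical error between probe sets and not the spread between embryos. The value of 0.40 includes the 6 kept probe sets of polr2i.S, which had an SD of 0.55 among them. Whether those all read 1 transcript was not tested, so 0.40 may hold more than technical error. The spiked-in controls differed between the arrays as well, with median log2 ratios of -0.22 for hybridization and -0.90 for poly-A controls. The pooled SD does not cover that difference. The log2 ratios of med10.S, med18.S, polr2j.S, med31.L and ccnh.L, from -0.66 to -0.89, exceed both SDs. The 1.5-fold rule that picked these genes, 0.585 in size, itself lies above both SDs, so this is no check on the calls. Each of these genes also rests on 1 probe set. The error of a complex's median was not measured.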

How the data were processed

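Total RNA (6 µg per sample) was labelled with biotin for the array, per the labels' protocols. The authors deposited 1 MAS5 intensity per probe set and array, on a linear scale, as the submitters' processing notes name MAS5. Its version and scaling target and any detection calls are not stated in the sources used here.

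Of 15611 probe sets, 120 controls were left out. Genes were named from the platform annotation, and 81 of the 82 members matched the Xenopus_laevis_v10.1 gene table by Entrez ID with the same symbol. A floor of 19.7, the 25th percentile over both arrays, was set before taking log2, and it changed 0 of the kept probe sets. The 7747 probe sets whose mean signal reached the median were kept, and their log2 ratios were shifted by 0.0089 so that the median was 0. With 1 array a group there was no test: genes were called by size, 2-fold or 1.5-fold. The text names members past 1.5-fold, the extremes of each complex and discordant homeologs or probe sets. From the other lists it names those past 1.5-fold and those largest in size. The complexes, members and lists were chosen with earlier results of these data known. The choice of ctps2.L, cdc42.L and pds5a.S and the Mediator modules came after the values were seen.

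In 9 alternatives the floor, centring, normalization, filter or the probe set used was changed, and 2 more were added after the data were seen. The procedure was tested on simulated arrays whose spread was taken from these same 2 arrays, so that test is no check on the calls. Python 3.11.15 was used with pandas 2.3.3, numpy 2.4.6 and statsmodels 0.14.6, and matplotlib 3.10.9 drew the figures.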

Additional observations from a re-analysis of the deposited data

How the results depend on the processing

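The 5 genes called 1.5-fold lower kept that call in 10 of the 11 alternatives, and 4 of them in the stricter signal filter, where med18.S was not measured. Several alternatives could not change these calls, so that count is a weak check. Removing or raising the floor left the 5 values unchanged. Each of the 5 genes has 1 kept probe set, so the choice among probe sets could not matter for them. The median of the machinery ranged from -0.13 to -0.09, that of RNA polymerase II from -0.37 to -0.33 and that of Mediator from -0.16 to -0.10. The median of TFIID and the TBP family, 0.03, changed side to -0.0091 without a signal filter, -0.039 with the filter at the 75th percentile and -0.018 with the brightest probe set of each gene. Integrator turned to -0.17 with the stricter filter, which left 1 gene. The count of genes 1.5-fold higher was 0 with the added constant and 0 with the stricter filter, which also left 1 homeolog pair, taf15, on the same side of 0. All alternatives started from the deposited signals, so the steps of MAS5 were not tested. No paired analysis was possible because there was 1 array in each group, and no replicate could be left out. Dim probe sets have less certain ratios.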
